A study of Rattus norvegicus with 6 samples.

Results

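The collagen genes were described in 6 pools of rat cerebellum, as the labels name the tissue, 3 of them after alcohol and 3 after saline. A gene counted as a member if the array annotation gave it a symbol made of Col, a number, the letter a and a number, such as Col1a1. This found 34 genes, carried by 38 of the 26419 features of the array, each measured with 5 probes, and for the 4 genes with a pair of features the brighter one was used. The name of 2 genes, Col4a3 and Col13a1, came from the deposited averaged matrix alone, and all 34 kept their symbol when matched by gene identifier to the RefSeq table of the rat assembly GRCr8.

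The rats were male Sprague-Dawley animals of 8 to 10 weeks and 240 to 260 g that had fasted for 12 h. The alcohol groups received 40% alcohol at 15 ml/kg by gavage, and the control groups received the same volume of saline. Each pool combined the tissue of 3 rats out of 9 per treatment, so that p-values reflect how pools varied, not how animals varied. How long after gavage the tissue was taken is not given in the sources used here. Each pool was hybridised with Cy3 label to 1 NimbleGen array, and levels are given as log2 of the deposited intensity, so that a difference of 1 is a fold of 2. An intensity under 50, or 5.64 on the log2 scale, is called off, and no fold is given for a gene that is off.

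Collagens are proteins whose 3 chains wind into a triple helix. Fibrillar collagens form the cables of meninges and vessel walls, type IV collagens form the sheet of basement membranes, type VI collagens form beaded filaments beside cells, and the remaining classes decorate fibrils, span membranes or carry sugar chains. In the brain, the matrix among neurons holds little fibrillar collagen, and most collagen lies in the meninges, around blood vessels and in the basement membrane under them. Cells add hydroxyl groups to the chains, fold them with the chaperone encoded by Serpinh1, trim their ends outside the cell and cross-link them with enzymes of the lysyl oxidase family.

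The arrays did not all carry the same tissue profile. Array medians were 213.2 to 232.8 in intensity, the random-sequence control probes were at 23.3 to 25.5, and 66.9% to 68.8% of features were on. The markers of cerebellar neurons (11 of 11 listed genes on the array, of which 7 were on in all 6 pools and none was off in all) lay below the other 4 pools in both alcohol pool 2 and control pool 1, in all 11. Their summed intensity ranged from 8588 to 165139 in alcohol pools and from 11282 to 174292 in control pools, with the lowest value of each group in those 2 pools. Alcohol pool 2 and control pool 1 are called the low-marker pools here, a split that no collagen value was used to make. In the low-marker pools the levels of markers of meninges and fibroblasts, of endothelium and of pericytes and smooth muscle were all above those of the other 4 pools, in 12 of 12, 11 of 11 and 11 of 11 genes on the array (of 13, 11 and 11 listed). Over all features, both low-marker pools lay above the other 4 in 23.4% and below in 25.1%. The marker lists were chosen with earlier results of these data known. Markers of oligodendrocytes and of microglia and macrophages were also above in the low-marker pools in 6 of 6 genes each, and markers of hindbrain neurons in 5 of 6 on the array (of 7 listed). Other lists were mixed. Both low-marker pools lay above in 3 of 5 astrocyte, 1 of 9 choroid plexus, 1 of 4 blood and 1 of 3 Schwann cell markers. Both lay below in 1 of 5 astrocyte and 3 of 9 choroid plexus markers. Of 4 markers of all neurons, 0 were above and 3 below. The choroid plexus gene Ttr was at 13.67 in alcohol pool 1 and at most 9.04 in the other pools. The summed intensity of the hindbrain markers ranged from 499.9 to 5151 in alcohol pools and from 622.1 to 6346 in control pools, highest in the low-marker pools. Hoxa2, one of these genes, had levels of 10.60 (alcohol) and 10.38 (control) in the low-marker pools and was off in the other 4. The low-marker pools thus differed from the rest in genes of several tissues and cell types, and whether the tissue taken differed between pools was not tested. For any 1 cell type, fewer cells and less RNA per cell cannot be told apart in pooled tissue.

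Of the 34 collagen genes, 26 were on in all 6 pools, 6 in some and 2, Col17a1 and Col22a1, in none. Of all 26419 features, 15882 were on in all 6 pools and 5870 in none. The collagen count used the brighter feature of a gene, and the annotation rule missed a few dim collagens, so these shares are not like for like. The collagen genes on per array numbered 30, 28 and 27 in alcohol pools 1, 2 and 3, against 29, 30 and 29 in control pools 1, 2 and 3. All 9 fibrillar, all 5 type IV and all 3 type VI genes were on everywhere. None of the 3 short-chain network genes was.

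The comparison of alcohol with saline asks whether acute intoxication moved these genes, and it found none that passed the threshold. In limma, fitted to all features with Benjamini-Hochberg adjustment, 0 of 34 collagen genes had an adjusted p under 0.05, against 0 of 26419 features (0%). At an unadjusted p under 0.05 limma had 1 of 34 (2.94%), namely Col4a4, against 3.9% of all features. With a term for the low-marker pools limma again had 0 of 34 collagen genes and 0% of features past the adjusted threshold, and at an unadjusted p under 0.05 it had 2 of 34 (5.88%), Col4a4 and Col7a1, against 9.47% of features. The levels were higher with alcohol in 17 collagen genes and lower in 17, with a median difference of -0.00 in the collagen genes and -0.02 in all features, of which 45.9% were higher. The count of 17 higher genes became 7 without alcohol pool 2 and 10 without control pool 2, so that it depends on single pools. All alcohol pools exceeded all control pools in 0 of 34 collagen genes, against 4.39% of features, and the reverse held in 1 of 34, against 4.36%. The standard error of the difference was wide for these genes, with a median of 0.375 in the collagen genes and 0.272 in all features. Between the highest and the lowest of the 6 pools the median range was 1.30 in the collagen genes and 0.91 in all features.

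**Figure D1:**
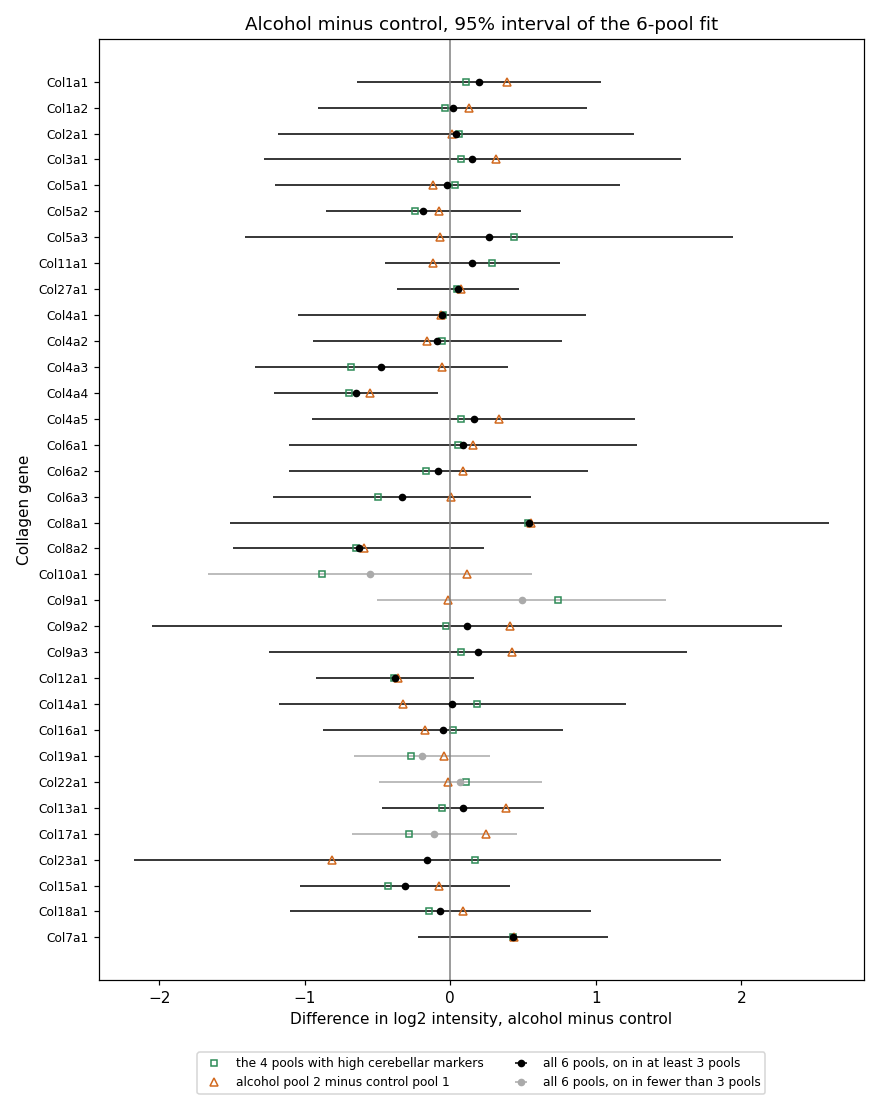
Difference in log2 intensity, alcohol minus control, for each collagen gene (circles, horizontal axis; grey where the gene was on in fewer than 3 pools) with the 95% interval from limma (bars), genes ordered by structural class down the page. Squares give the difference among the 4 pools other than the low-marker pair and triangles alcohol pool 2 minus control pool 1. The interval includes 0 for every gene except Col4a4, which lay at -0.65 with an interval from -1.21 to -0.08 and did not pass after adjustment.

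A second pattern in the collagen genes ran across treatment. In 16 of 34 collagen genes (47.1%) the levels of both low-marker pools lay above those of all other pools, against 23.4% of all features. In 5 of 34 (14.7%) both lay below, against 25.1% of all features. The genes above comprised 7 of 9 fibrillar, 4 of 5 type IV and 2 of 3 type VI genes, as well as Col9a3, Col14a1 and Col8a1. The genes below were Col9a2, Col18a1 and Col23a1, together with Col10a1 and Col19a1, which were off in most pools. These counts describe 2 pools of different treatment against 4 and were not tested.

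**Figure D2:**
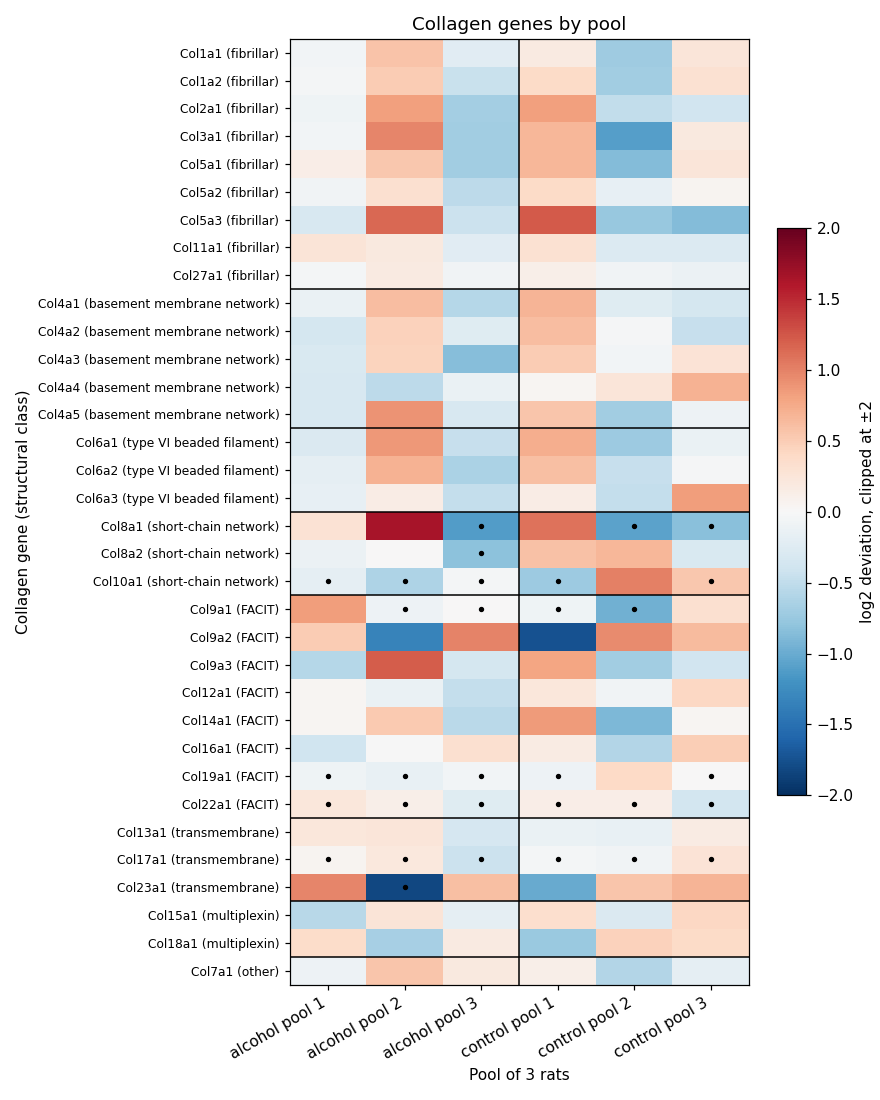
Level of each of the 34 collagen genes (rows, by structural class) in each pool (columns, alcohol pools left of control pools), as the deviation of log2 intensity from the mean of the 6 pools of that gene, with colours clipped at ±2 and dots where the gene was off. Most fibrillar, type IV and type VI rows are high in alcohol pool 2 and control pool 1, while Col9a2, Col18a1 and Col23a1 are low there.

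Among the fibrillar collagens, Col1a1 and Col1a2 encode the chains of type I collagen, the main collagen of meninges and of vessel adventitia. Col1a2 had levels of 13.15, 13.69 and 12.75 in alcohol pools 1, 2 and 3, against 13.56, 12.49 and 13.49 in control pools 1, 2 and 3. The ranges of the groups overlapped widely, and the difference was 0.02 (SE 0.38, 95% interval -0.91 to 0.94, limma adjusted p = 1.00). Col1a1 had levels of 12.46, 13.08 and 12.29 in alcohol pools, against 12.69, 11.79 and 12.74 in control pools. Here control pool 3 lay slightly above control pool 1, which is why Col1a1 is not among the 16 genes, and the difference was 0.20 (SE 0.35, 95% interval -0.64 to 1.04).

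Col3a1 encodes type III collagen, the partner of type I in extensible tissue such as artery walls. Its level was 10.96, 11.99 and 10.31 in alcohol pools and 11.67, 9.91 and 11.21 in control pools. The low-marker pools were the highest of their groups, the groups overlapped over nearly their whole range, and the difference was 0.15 (SE 0.59). Col5a3 encodes a minor chain of type V collagen, which is built into type I fibrils. Its level was 7.77, 9.24 and 7.65 in alcohol pools and 9.31, 7.33 and 7.23 in control pools. This gene separated the low-marker pools from the other 4 by 1.78 (9.28 against 7.50), a fold of 3.44, and its alcohol difference was 0.27 (SE 0.69). Col5a2, another type V chain, had 10.64, 11.04 and 10.20 in alcohol pools and 11.11, 10.55 and 10.78 in control pools, with a difference of -0.19 (SE 0.28).

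The remaining fibrillar genes are given after their values were seen. Col2a1, the type II chain best known from cartilage, had 8.09, 8.99 and 7.49 in alcohol pools and 8.98, 7.68 and 7.78 in control pools. It was thus high in the same pair of pools. Of the 6 markers of cartilage and bone, 4 were above in both low-marker pools, against 23.4% of all features. The proteoglycan gene Acan was among the 4, while Ibsp and Bglap were not. The summed intensity of the 6 markers ranged from 386.0 to 1725 in alcohol pools and from 273.7 to 1397 in control pools. The part of these markers in the Col2a1 level was not tested. Col27a1, a fibrillar chain of cartilage and other tissues, showed the smallest spread of all 34 genes, with levels from 9.47 to 9.72 in alcohol pools and from 9.41 to 9.64 in control pools. Col5a1 ranged from 7.53 to 8.77 in alcohol pools and from 7.36 to 8.89 in control pools, and Col11a1, a chain of type XI fibrils, from 7.78 to 8.28 in alcohol pools and from 7.74 to 8.32 in control pools.

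The fibrillar genes also varied among the 4 pools with high cerebellar markers. The median deviation of the 9 genes from their 6-pool means was -0.05, 0.54 and -0.44 in alcohol pools 1, 2 and 3, against 0.39, -0.70 and 0.06 in control pools 1, 2 and 3. Alcohol pool 3 and control pool 2 were thus the lowest of their groups. The 12 markers of meninges and fibroblasts had median deviations of -0.13, 1.00 and -0.79 in alcohol pools 1, 2 and 3, against 0.83, -0.70 and -0.10 in control pools 1, 2 and 3. Their summed intensity ranged from 7931 to 25258 in alcohol pools and from 8854 to 23472 in control pools, and none of the 12 was off in any pool. The part of these cells in the collagen levels was not tested.

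**Figure D3:**
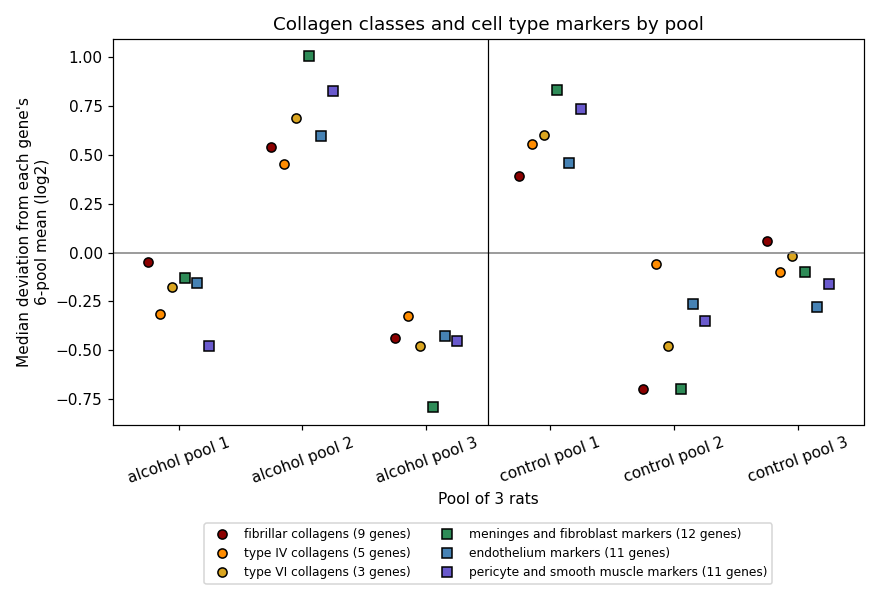
Median deviation of log2 intensity from the 6-pool mean of each gene, for the fibrillar, type IV and type VI collagens (circles) and for markers of meninges and fibroblasts, endothelium, and pericytes and smooth muscle (squares), in alcohol pools 1 to 3 and, to their right, control pools 1 to 3. All 6 lists are highest in alcohol pool 2 and control pool 1, and the lowest point of meningeal markers is at -0.79 in alcohol pool 3.

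Type IV collagen genes lie in head-to-head pairs, in which both genes of a pair start from the same stretch of DNA on opposite strands. In the RefSeq table the start sites of Col4a1 and Col4a2 were 77 bases apart and those of Col4a3 and Col4a4 were 413 bases apart. The window of each first gene, from 250 bases before to 50 after its start on GRCr8, is shown because the values of these pairs are given next. The window of Col4a1 holds the start sites of both genes of its pair, and that of Col4a3 holds its own start site but not that of Col4a4. Capitals mark those bases of a window that lie between the start sites of the pair, in chr16:84885347-84885646 on the + strand for Col4a1 and chr9:91323740-91324039 on the + strand for Col4a3.
Col4a1: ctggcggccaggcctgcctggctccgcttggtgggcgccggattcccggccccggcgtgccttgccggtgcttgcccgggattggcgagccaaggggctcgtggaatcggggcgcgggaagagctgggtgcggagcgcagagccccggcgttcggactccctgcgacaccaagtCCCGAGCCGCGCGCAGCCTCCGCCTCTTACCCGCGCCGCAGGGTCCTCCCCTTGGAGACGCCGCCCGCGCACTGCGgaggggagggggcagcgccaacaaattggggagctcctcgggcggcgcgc
Col4a3: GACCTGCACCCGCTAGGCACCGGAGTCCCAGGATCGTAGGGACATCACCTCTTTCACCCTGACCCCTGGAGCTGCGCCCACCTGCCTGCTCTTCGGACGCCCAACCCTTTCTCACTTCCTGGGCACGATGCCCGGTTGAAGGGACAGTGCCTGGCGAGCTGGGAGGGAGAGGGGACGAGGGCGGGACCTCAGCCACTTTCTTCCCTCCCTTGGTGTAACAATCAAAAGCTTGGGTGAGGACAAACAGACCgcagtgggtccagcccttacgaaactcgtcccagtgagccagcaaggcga

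Col4a1 and Col4a2 encode the chains of the common type IV network found under every endothelium. Col4a1 had levels of 9.82, 10.57 and 9.38 in alcohol pools and 10.63, 9.70 and 9.60 in control pools, a difference of -0.06 (SE 0.41, 95% interval -1.04 to 0.93). Col4a2 had levels of 8.70, 9.50 and 8.80 in alcohol pools and 9.66, 9.02 and 8.58 in control pools, a difference of -0.09 (SE 0.35, 95% interval -0.95 to 0.77). Both genes of this pair were highest in the low-marker pools, by 0.97 for Col4a1 and 0.80 for Col4a2, and in both the groups overlapped.

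Col4a3 and Col4a4 encode chains of the specialised network best known from kidney, lung and inner ear. Col4a3 had levels of 7.06, 7.81 and 6.52 in alcohol pools and 7.87, 7.31 and 7.63 in control pools. The low-marker pools were again high, by 0.71, and the difference was -0.47 (SE 0.36). Col4a4 had levels of 6.28, 6.07 and 6.46 in alcohol pools, against 6.62, 6.84 and 7.29 in control pools. It alone among the 34 collagen genes had groups that did not overlap. Here the low-marker pools were not the highest, with a mean of 6.35 against 6.71 in the other 4. The mean was 6.27 ± 0.19 in alcohol pools and 6.92 ± 0.34 in control pools (SD, n = 3 each), a difference of -0.65 (SE 0.23, limma unadjusted p = 0.031, adjusted p = 1.00). With a term for the low-marker pools the standard error was 0.16 and limma's adjusted p 0.444. The difference was -0.70 among the 4 other pools and -0.55 within the low-marker pair. Col4a6, which the annotation rule missed, had 7.26, 7.76 and 7.14 in alcohol pools and 6.94, 5.79 and 6.77 in control pools. Every alcohol pool thus lay above every control pool, the opposite order to Col4a4, which 4.39% of all features shared. Col4a6 did not pass the adjusted threshold, and its second feature was off in all pools.

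Col4a5 encodes the chain that joins those of Col4a3 and Col4a4 in the specialised network and also occurs in other basement membranes. Its level was 9.09, 10.31 and 9.09 in alcohol pools and 9.97, 8.72 and 9.31 in control pools, high in the low-marker pools by 1.09, with a difference of 0.16 (SE 0.46). The 5 type IV genes had median deviations of -0.32, 0.46 and -0.32 in alcohol pools 1, 2 and 3, against 0.56, -0.06 and -0.10 in control pools 1, 2 and 3. The 11 endothelial markers were likewise highest in the low-marker pools, with median deviations of -0.15, 0.60 and -0.43 in alcohol pools and 0.46, -0.27 and -0.28 in control pools. Their summed intensity ranged from 12307 to 24122 in alcohol pools and from 13184 to 21427 in control pools, none was off on all arrays, and their part in the type IV levels was not tested.

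Type VI collagen is a filament of 3 chains made by fibroblasts, vessel walls and nerve sheaths. Col6a1 had levels of 9.29, 10.44 and 9.11 in alcohol pools and 10.29, 8.85 and 9.44 in control pools, a difference of 0.09 (SE 0.49). Col6a2 had levels of 9.12, 9.99 and 8.66 in alcohol pools and 9.90, 8.84 and 9.28 in control pools, a difference of -0.08 (SE 0.42). Both genes were high in the low-marker pools by 1.19 for Col6a1 and 0.97 for Col6a2. Col6a3, which encodes the largest of the chains, had 9.19, 9.51 and 8.88 in alcohol pools and 9.51, 8.88 and 10.20 in control pools. Its highest value lay in control pool 3, outside the low-marker pools, and the difference was -0.33 (SE 0.37). The markers of pericytes and smooth muscle deviated by -0.48, 0.83 and -0.45 in alcohol pools 1, 2 and 3, against 0.73, -0.35 and -0.16 in control pools 1, 2 and 3, with summed intensities from 13315 to 44264 in alcohol pools and from 13511 to 34801 in control pools. None of the 11 was off on all arrays, and their part in the type VI levels was not tested.

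**Figure D4:**
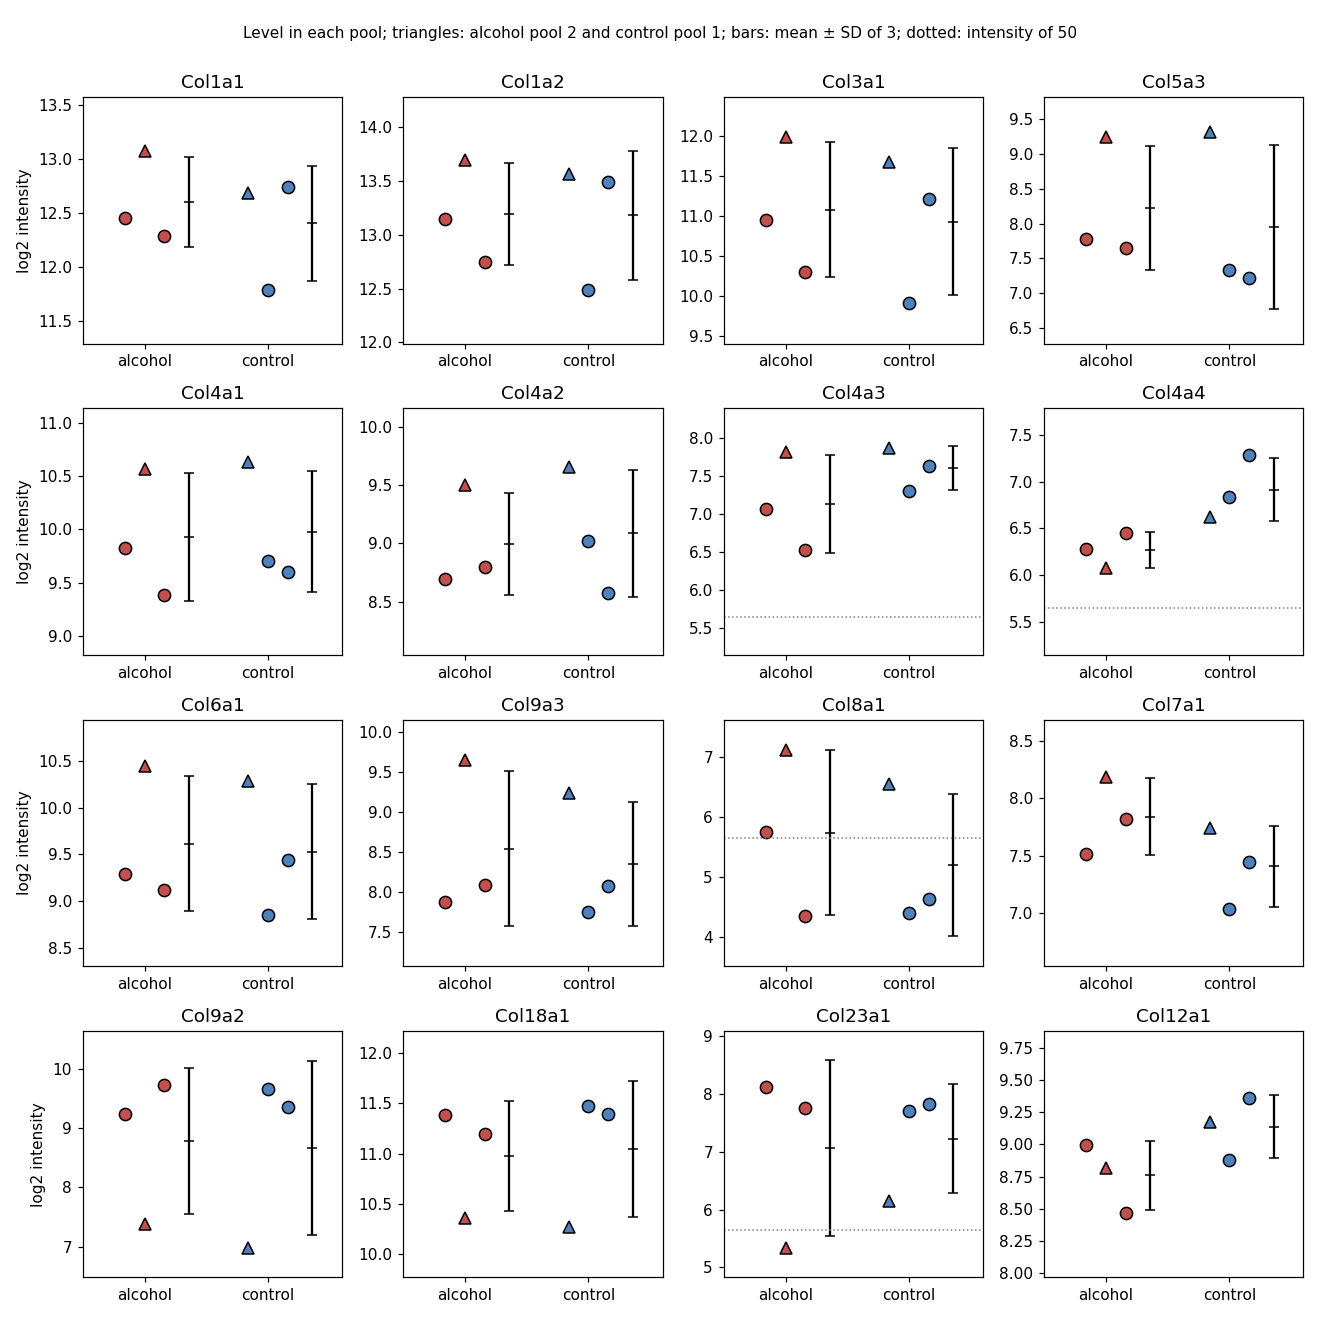
Level of 16 collagen genes in each pool as log2 intensity (vertical axes, 1 panel a gene), with the 3 alcohol pools left of the 3 control pools. Triangles are alcohol pool 2 and control pool 1, bars are the mean ± SD of each group, and a dotted line marks an intensity of 50. The groups overlap in every gene shown except Col4a4, and the triangles lie at the upper end of most panels and at the lower end for Col9a2, Col18a1 and Col23a1.

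The FACIT collagens sit on the surface of fibrils rather than forming them. Type IX collagen is a FACIT of 3 different chains, best known from cartilage and the eye, and its genes took opposite directions. Col9a2 had levels of 9.23, 7.39 and 9.72 in alcohol pools and 6.98, 9.66 and 9.36 in control pools, a difference of 0.12 (SE 0.90, 95% interval -2.05 to 2.28). Col9a3 had levels of 7.88, 9.66 and 8.09 in alcohol pools and 9.24, 7.75 and 8.07 in control pools, a difference of 0.19 (SE 0.59, 95% interval -1.25 to 1.62). The low-marker pools were thus the lowest in Col9a2, with a mean of 7.18 against 9.49 in the other 4, a fold of 4.96, and the highest in Col9a3, with 9.45 against 7.95, a fold of 2.83. Col9a1, the third chain, was on in alcohol pool 1 (6.41) and control pool 3 (5.90) and off in the other 4. Its second feature was on in alcohol pool 1 alone, at 5.80.

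Col12a1 encodes a FACIT of tendon and other dense connective tissue. Its level was 9.00, 8.82 and 8.47 in alcohol pools and 9.18, 8.88 and 9.36 in control pools, a difference of -0.38 (SE 0.23, limma unadjusted p = 0.14). The low-marker pools did not stand out, with 9.00 against 8.93 in the other 4. Its second feature gave a difference of -0.16, and those of Col14a1 gave 0.01 for the brighter feature and -0.06 for the other. Col19a1 was off except at 5.74 in control pool 2.

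Col18a1 and Col23a1 ran against the fibrillar collagens, as Col9a2 did above. Col18a1 encodes type XVIII collagen, a basement membrane collagen that carries heparan sulfate chains and whose end is released as endostatin. Its level was 11.38, 10.36 and 11.20 in alcohol pools and 10.27, 11.47 and 11.39 in control pools, lowest in the low-marker pools by 1.05 (10.31 against 11.36). The difference with alcohol was -0.07 (SE 0.43), and -0.06 for its second feature. Col23a1 encodes a transmembrane collagen. Its level was 8.12, 5.33 and 7.75 in alcohol pools and 6.14, 7.70 and 7.82 in control pools, off in alcohol pool 2 and low in control pool 1, with a difference of -0.16 (SE 0.83) that rests in part on an off value. The promoter windows of these genes are shown because both were low in the low-marker pools. Each held the GC box, the letters GGGCGG on either strand, 3 times, but this did not set them apart. The windows of Col11a1 and Col5a3 also held 3, that of Col8a1 held 4 and that of Col8a2 held 5, and of these Col5a3 and Col8a1 were high in the low-marker pools. Capitals mark the GC boxes, in chr20:11473395-11473694 on the + strand for Col18a1 and chr10:36050077-36050376 on the + strand for Col23a1, both RefSeq GRCr8.
Col18a1: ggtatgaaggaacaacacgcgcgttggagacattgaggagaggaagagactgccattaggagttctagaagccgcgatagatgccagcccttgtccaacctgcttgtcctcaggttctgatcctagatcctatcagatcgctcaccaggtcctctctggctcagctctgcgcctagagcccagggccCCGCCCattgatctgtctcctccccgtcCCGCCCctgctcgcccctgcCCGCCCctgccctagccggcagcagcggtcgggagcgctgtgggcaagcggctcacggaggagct
Col23a1: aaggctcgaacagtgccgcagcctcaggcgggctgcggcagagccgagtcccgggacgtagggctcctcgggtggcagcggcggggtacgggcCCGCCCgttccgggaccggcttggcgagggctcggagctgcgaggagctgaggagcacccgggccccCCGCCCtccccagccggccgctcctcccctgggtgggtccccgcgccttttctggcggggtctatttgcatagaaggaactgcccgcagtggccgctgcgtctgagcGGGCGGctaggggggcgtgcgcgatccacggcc

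Promoter windows of 300 bases were available for 26 of the 34 collagen genes. The GC box, which binds factors of the Sp family, was present in 14 of 26 (53.8%), against 33.1% of the 33469 windows of all genes. The CCAAT box, letters CCAAT on either strand, was present in 7 of 26 (26.9%), against 37.5% of all windows. The TATA box, searched as TATAAA on either strand, was present in 4 of 26 (15.4%), against 14.2%. The window of Col9a2, which was also low in the low-marker pools, held none of these motifs. These matches describe letters in the windows and do not show that a factor binds there.

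Of the other classes, Col15a1 is the close relative of Col18a1 and is typical of vessel basement membranes. It had levels of 5.97, 6.79 and 6.35 in alcohol pools and 6.86, 6.24 and 6.93 in control pools, a difference of -0.31 (SE 0.30). Col7a1, whose product anchors the epidermis to the dermis, had 7.52, 8.18 and 7.82 in alcohol pools and 7.74, 7.04 and 7.44 in control pools, a difference of 0.43 (SE 0.27, limma unadjusted p = 0.159). With a term for the low-marker pools the standard error was 0.17, and limma gave an unadjusted p of 0.0429 and an adjusted p of 0.517. It differed by 0.43 among the 4 other pools and by 0.44 within the low-marker pair. The membrane collagen gene Col13a1 had 7.53, 7.54 and 6.96 in alcohol pools and 7.16, 7.14 and 7.46 in control pools.

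Counted within both kinds of pool, few collagen genes kept 1 order. Alcohol pools lay wholly below control pools among the 4 pools with high markers, and alcohol pool 2 also below control pool 1, in 3 of 34 genes (8.82%), Col4a3, Col4a4 and the mostly off Col19a1, against 14.4% of features. The opposite order in both held in 2 of 34 (5.88%), Col7a1 and Col27a1, against 10.8% of features. In Col27a1 it rested on a small gap, with alcohol pool 3 at 9.4656 and control pool 2 at 9.4635.

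The short-chain network collagens of type VIII and type X were partly off. Col8a1, a chain made by vessel smooth muscle and corneal endothelium, had levels of 5.75, 7.11 and 4.35 in alcohol pools and 6.55, 4.40 and 4.62 in control pools. It was on in the low-marker pools and in alcohol pool 1 and off in the other 3. Col8a2, its partner chain, had 6.22, 6.34 and 5.52 in alcohol pools and 6.94, 7.004 and 6.03 in control pools, a difference of -0.63 (SE 0.36, limma unadjusted p = 0.126). It was off in alcohol pool 3 alone. Col10a1, the collagen of growth plate cartilage, was on only in control pool 2, at 6.07.

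Genes that make, trim, break down and read collagen, other matrix proteins and TGF-beta signalling genes came from 6 lists, with 106 genes on the array. In limma 0 of them passed the threshold and 0 had an unadjusted p under 0.05, against 0% and 3.9% of all features. Both low-marker pools lay above the other 4 in 72 of the 106 and below in 9, against 23.4% and 25.1% of all features. The lists were chosen with results of these data known, and these counts were not tested. The counts by direction below stand beside 45.9% of all features higher with alcohol. Without 1 pool the median difference ranged from -0.16 to 0.10 for chaperones and modifying enzymes and from -0.33 to 0.19 for processing. It ranged from -0.32 to -0.03 for breakdown and from -0.25 to 0.22 for receptors. For other matrix proteins it ranged from -0.41 to 0.22, and for TGF-beta signalling from -0.17 to 0.26.

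Chaperones and modifying enzymes fold and hydroxylate the chains. Of 22 genes, 8 were higher and 14 lower with alcohol, with a median difference of -0.05. P4hb, a subunit of prolyl 4-hydroxylase, had 12.45, 12.97 and 12.47 in alcohol pools and 12.25, 12.22 and 12.35 in control pools. Ppib, a prolyl isomerase of the endoplasmic reticulum, had 12.89, 13.16 and 12.76 in alcohol pools and 13.25, 12.84 and 12.85 in control pools. In P4hb every alcohol pool lay above every control pool, by 0.36 on average, an order that 4.39% of all features shared, while the groups overlapped in Ppib, and neither passed the threshold in limma.

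Processing and cross-linking enzymes act outside the cell. Of the 14 on the array out of 15 listed, 8 were higher and 6 lower with alcohol, with a median difference of 0.01. Bmp1, which removes the C-terminal propeptide, had 12.68, 10.80 and 12.89 in alcohol pools and 10.89, 12.63 and 12.82 in control pools. Adamts2, which removes the N-terminal propeptide, had 8.46, 10.39 and 8.74 in alcohol pools and 10.31, 9.01 and 9.16 in control pools. The enzymes for both chain ends thus went opposite ways in the low-marker pools, Bmp1 lowest and Adamts2 highest. Lox, a lysyl oxidase, had 9.02, 9.84 and 9.21 in alcohol pools and 9.72, 9.65 and 10.13 in control pools.

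Of the 17 breakdown genes on the array out of 18 listed, 4 were higher and 13 lower with alcohol, with a median difference of -0.14. The collagenase and gelatinase genes Mmp1, Mmp8, Mmp9 and Mmp13 and the stromelysin gene Mmp3 were off in all pools. They are still in the counts above, Mmp1, Mmp8 and Mmp9 as lower and Mmp3 and Mmp13 as higher. The other gelatinase gene, Mmp2, was on in all 6 pools, from 7.36 to 9.29 in alcohol pools and from 7.18 to 8.95 in control pools. Mmp14 was on in all 6 as well. Timp3, an inhibitor bound to matrix, had 11.47, 12.51 and 10.98 in alcohol pools and 12.34, 11.09 and 11.39 in control pools. Mmp24, a membrane-bound metalloproteinase of neurons, had 12.28, 8.76 and 12.20 in alcohol pools and 9.03, 12.26 and 11.94 in control pools. Timp3 followed the fibrillar collagens and Mmp24 the opposite order.

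Collagen receptors showed 4 genes higher and 6 lower of 10, with a median difference of -0.12. Of the 6 lower genes, Itga2, Itga10 and Gp6 were off in all pools. Itgb1, the common beta chain of collagen-binding integrins, had 10.48, 11.92 and 10.32 in alcohol pools and 11.85, 10.37 and 10.44 in control pools. Adgrg1, a type III collagen receptor of neural progenitors and oligodendrocyte precursors, had 9.13, 11.005 and 8.67 in alcohol pools and 10.93, 9.01 and 8.83 in control pools. Both were highest in the low-marker pools and overlapped between treatments.

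Of the 28 other matrix proteins on the array out of 30 listed, 11 were higher and 17 lower with alcohol, with a median difference of -0.05. In 26 of the 28 both low-marker pools lay above the other 4, against 23.4% of all features. Dcn, Lum, Ogn and Fmod are also on the list of meninges and fibroblast markers, and Vtn on that of pericytes and smooth muscle. These genes are thus counted in both places. Sparc, a collagen-binding protein made by astrocytes and endothelium, had 15.10, 15.21 and 14.92 in alcohol pools and 15.15, 14.90 and 15.01 in control pools. Lamc1, a laminin chain of basement membranes, had 10.48, 11.19 and 10.64 in alcohol pools and 11.32, 10.68 and 10.53 in control pools. Among the 15 genes of TGF-beta signalling, a pathway that raises collagen transcription, 10 were higher and 5 lower with alcohol, with a median difference of 0.06. Its receptor gene Tgfbr1 had 9.94, 10.76 and 9.84 in alcohol pools and 10.81, 9.83 and 9.70 in control pools, and Smad4, its shared transcription factor, had 10.90, 10.75 and 10.87 in alcohol pools and 10.40, 10.49 and 10.59 in control pools. Smad4 lay above all control pools in every alcohol pool, by 0.35 on average, an order shared by 4.39% of all features, and did not pass the threshold (limma adjusted p = 1.00).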

How the data were processed

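RNA of 6 pools was measured on 6 single-colour arrays. The authors deposited a linear intensity per feature and array, which the submitters' processing notes credit to RMA (robust multi-array average) without a version. The genome build, the scanner settings and the joint or separate equalising of arrays are not given in the sources used here. Also, a value table of 18107 features, deposited by the authors, equals the per-array values to within 9.1e-07 of their size. Values were taken to log2 as they stood. A linear model with treatment alone was fitted in limma 3.58.1 (R 4.3.3; lmFit, then eBayes), its two-sided p-values were adjusted by Benjamini-Hochberg across all 26419 features, and 0.05 was the threshold. With 3 pools against 3, the smallest p of an exact permutation test is 0.10, which is why genes were judged by limma. Tables and plots used Python 3.11.15, pandas 2.3.3, numpy 2.4.6 and matplotlib 3.10.9.

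The collagen genes, the 6 lists of related genes and the marker lists were chosen with earlier results of these data known, as was the term for alcohol pool 2 and control pool 1. The rule for named collagen genes took the 3 brightest of each structural class, the 8 with the smallest p among those on in at least 3 pools, the 6 with the largest range, and those on in some pools only, 27 genes in all; from each list of related genes it took up to 4 of the brightest. Other genes were named after their values were seen. The annotation rule missed Col4a6, Col28a1 and a few dim collagens that the gene identifier alone would name. Of these only the levels of Col4a6 are given. Alternatives covered the value table, median centring, quantile normalization, each pool left out, the replicate number as a block, the marker term, the 4 pools with high cerebellar markers, a filter on dim features, other eBayes options, array weights, averaging over the features of a gene, and other limits for off.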

Additional observations from a re-analysis of the deposited data

How the results depend on the processing

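No feature passed limma's adjusted threshold under any alternative (smallest adjusted p 0.130, without alcohol pool 2), so no call of a collagen gene was lost or gained. Without 1 pool, the count of collagen genes higher with alcohol ranged from 7 (without alcohol pool 2) to 22 (without alcohol pool 3), and it was 10 without control pool 2, against 17 with all 6. Their median difference ranged from -0.24 to 0.21. With the replicate block or the marker term the count was 17 and the median -0.00, which the design fixed in advance. Each replicate number and 1 low-marker pool fall in each group, so these terms cannot change a difference. The other eBayes options cannot change a difference either. The replicate numbers were not treated as pairs: after removal of group means, same-numbered pools correlated over features at -0.63, -0.68 and 0.60, and alcohol pool 2 correlated with control pool 1 at 0.84. Of 26 named genes with alternatives, 17 took the other sign without at least 1 pool and 9, Col4a4 among them, kept their sign under all alternatives run. The replicate block, the marker term and the other eBayes options could not change a sign. Nor could the value table or the filter on dim features, which left the values of a gene as they were. Without 1 pool the difference ranged from -0.0111 to 0.28 for Col13a1, from -0.46 to 0.24 for Col18a1, from -0.11 to 0.37 for Col1a1, from -0.33 to 0.24 for Col1a2, from -0.70 to 0.71 for Col23a1 and from -0.36 to 0.54 for Col3a1. It ranged from -0.38 to 0.27 for Col4a1, from -0.34 to 0.20 for Col4a2, from -0.24 to 0.48 for Col4a5, from -0.39 to 0.0267 for Col5a2, from -0.24 to 0.95 for Col5a3 and from -0.33 to 0.47 for Col6a1. The remaining genes ranged from -0.45 to 0.22 for Col6a2, from -0.65 to 0.0016 for Col6a3, from -0.14 to 1.24 for Col8a1, from -0.73 to 0.81 for Col9a2 and from -0.37 to 0.63 for Col9a3. Among the 4 pools with high cerebellar markers alone, the difference was -0.0307 for Col9a2, -0.0393 for Col1a2, -0.0585 for Col13a1 and 0.17 for Col23a1. With array weights it was -0.0557 for Col9a3, 0.0239 for Col4a1, -0.0020 for Col4a5, -0.0246 for Col1a2 and 0.29 for Col23a1. The cause of these changes was not tested. With an intensity of 100 as the limit, 21 collagen genes were on in all pools instead of 26. Signal near the random-sequence controls limits what can be said of Col8a1, Col8a2, Col9a1, Col10a1, Col19a1 and Col23a1. Col4a4 was also dim: its alcohol pools (6.28, 6.07 and 6.46) and control pool 1 (6.62) lay under an intensity of 100.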
